A study of Mus musculus with 16 samples.

Results

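The 37 genes described here encode the subunits of integrins and laminins, and were taken as every gene name on the arrays that is an integrin alpha chain (Itga), an integrin beta chain (Itgb) or a laminin alpha, beta or gamma chain (Lama, Lamb, Lamc). They are 26 integrin subunits, 18 alpha and 8 beta, and 11 laminin subunits, 5 alpha, 3 beta and 3 gamma, of 34836 gene names in all. RNA of myoblasts derived from mouse muscle satellite cells was measured on 16 single-color Agilent arrays, 4 for each of 2 cultures at 48 and 72 hr after isolation. For dispersed myoblasts the cells were taken off the fiber and plated on gelatin, with 1 mouse per preparation. Myofiber-associated myoblasts (Mf-A) were kept on explanted muscle fibers and then stripped from them with trypsin, with 2 mice per preparation and 1 of the 48-hr arrays (replicate 10) holding a pool of 2 preparations. All mice were male C57Bl/6J, 11 to 13 weeks old, with no transgene or treatment named in the labels, and the labels' source name calls all samples myofibres.

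Integrins are receptors made of 1 alpha and 1 beta chain that tie the cytoskeleton to the matrix outside the cell, and the alpha chain largely sets which ligand is bound. Laminins are trimers of an alpha, a beta and a gamma chain and form the sheet of the basal lamina. A satellite cell lies between the muscle fiber and this sheet, and the integrin made of Itga7 and Itgb1 is the main laminin-binding integrin of skeletal muscle. The genes thus encode receptors of the myoblast and ligands of the kind found in its niche. The arrays show the RNA of both in preparations stripped from the fiber and in dispersed cells. Protein and the matrix of the niche itself were not measured.

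Of the 37 genes, 31 had a median log2 signal of at least 5 over the arrays and were tested, 21 integrin and 10 laminin subunits, and all 31 were well above background on each of the 16 arrays. Replicate arrays correlated across all genes with Pearson's r of 0.980 to 0.998, and the median SD of a gene was 0.09 and 0.10 log2 units in dispersed myoblasts and 0.22 and 0.18 in Mf-A at 48 and 72 hr. Each culture filled a slide of its own, 8 arrays per slide, and each time had its own columns of the slide. Culture therefore cannot be told apart from slide, nor time from column. Of the satellite cell and myoblast markers, 11 of 11 were well above background on all arrays. Adult fiber markers (10 of 10 above background) summed to a normalized signal of 82303 to 106288 over the dispersed arrays, 1297270 to 1967920 on the Mf-A 48-hr arrays and 352868 to 1234910 on the Mf-A 72-hr arrays. The labels state that checks found no fiber RNA in the Mf-A preparations, and whether the signal of these markers came from fibers or from the myoblasts was not tested. In such bulk samples fewer cells of a type and less RNA per cell cannot be told apart.

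Between 48 and 72 hr, 1 subunit passed the threshold in both cultures: Itgb4, which pairs with Itga6 and anchors epithelial cells to laminin, rose in dispersed myoblasts and in Mf-A. In dispersed myoblasts Lama2 and Lamb1, chains of the laminin of the muscle basal lamina, rose by less, and Itgb2, the common beta chain of leukocyte integrins, fell. In Mf-A Itga6, Lamb3 and Lama5 rose along with Itgb4, while Lama4, Lamc1 and the collagen receptor chain Itga11 fell. The largest log2 change among the subunits called in either culture was that of Itgb4 in Mf-A, 3.77.

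In dispersed myoblasts 4 of the 31 subunits passed an adjusted p of 0.01, 3 higher and 1 lower at 72 hr. Over all 20317 genes 13.7% were called, 7.38% higher and 6.32% lower, so the share of subunits called was near that of all genes. The median log2 change was 0.08 over the subunits and 0.02 over all genes, and the median absolute change was 0.30 and 0.14. The 48- and 72-hr arrays did not overlap for 11 of 31 subunits and for 31.2% of all genes. Of the 21 integrin subunits 2 were called, and of the 10 laminin subunits 2. The same 4 were called with each array left out in turn, and without 48-hr replicate 1 the count was 7. Without 72-hr replicate 7 Lama4 passed as well, as a fall (adjusted p = 0.00812). The share of all genes called ranged from 8.26% to 12.3% in these fits and was 11.6% without 48-hr replicate 1.

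In Mf-A 7 of 31 subunits were called, 4 higher and 3 lower, against 5.48% of all genes, 3.74% higher and 1.74% lower. The median log2 change was -0.23 over the subunits and 0.06 over all genes, and the median absolute change was 0.74 and 0.28. The 48- and 72-hr arrays did not overlap for 19 of 31 subunits, against 26.3% of all genes. Among the receptors 3 of 21 integrin subunits were called, and among the ligands 4 of 10 laminin subunits, 2 in each direction. The count turned on single arrays: it was 1 (Itgb4) without 48-hr replicate 7 or 72-hr replicate 1, 2 or 3, 2 without 48-hr replicate 9, 4 without 48-hr replicate 8, 7 without the pooled 48-hr replicate 10 and 9 without 72-hr replicate 4. Itgb4 passed in each of these fits. With the slide row as a block 5 were called, as Itga6, Itga11 and Lama5 missed the threshold and Itgb3 passed it.

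The comparative ratio, the change in dispersed myoblasts minus the change in Mf-A, tests whether the cultures differ. It passed for 3 of 31 subunits, all of them lower (Itgb4, Itga6 and Lama5), against 3.45% of all genes, 1.09% higher and 2.36% lower. The log2 comparative ratio was -2.07 for Itgb4 (SE 0.43, adjusted p = 0.00861), -1.84 for Itga6 (SE 0.33, adjusted p = 0.0039) and -1.30 for Lama5 (SE 0.22, adjusted p = 0.00335). For each of the 3 the change was the more positive one in Mf-A. The call of Itgb4 was lost without 11 of the 16 arrays, that of Itga6 without 3, and that of Lama5 held without each array in turn. The log2 change of 21 of the 31 subunits had the same sign in both cultures. Without 1 array the count was 1 to 8, with 8 without Mf-A 72-hr replicate 4, 6 without the pooled Mf-A 48-hr array, 5 without Mf-A 48-hr replicate 8, 2 or 3 without the arrays not named here, and 1 (Lama5) without dispersed 48-hr replicate 4 or 72-hr replicate 5 or 6.

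**Figure D1:**
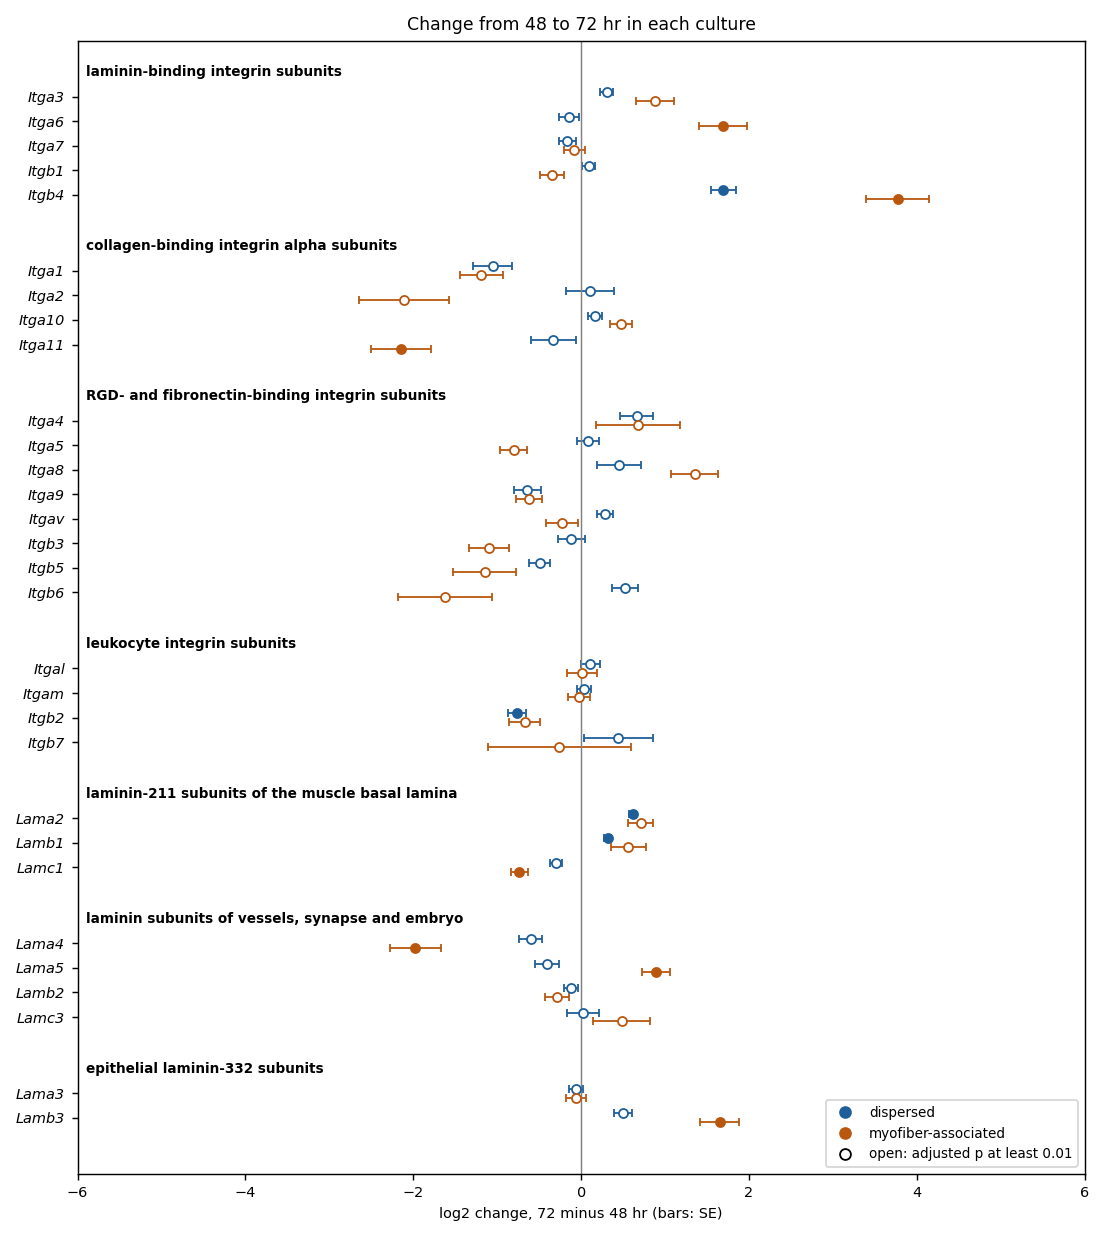
Log2 change from 48 to 72 hr (x axis, 72 minus 48 hr) of 30 of the 31 tested subunits, grouped by what they bind or where they are laid down, in dispersed (blue) and myofiber-associated (orange) myoblasts; bars are the SE and filled points passed an adjusted p of 0.01 in limma. Itgb4 stands farthest to the right, at 1.70 and 3.77, and Itga11, at -2.15 in Mf-A, farthest to the left among the filled points.

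The laminin-binding integrin subunits were Itga3, Itga6, Itga7, Itgb1 and Itgb4. Itgb4, read by a probe at chr11:115869666-115869725 (mm9), gave log2 signals of 10.91, 10.80, 10.83 and 10.91 in dispersed myoblasts at 48 hr and 12.26, 12.38, 12.58 and 13.00 at 72 hr. In Mf-A it gave 8.18, 9.18, 8.12 and 8.13 at 48 hr (replicates 7 to 10) and 12.90, 11.76, 12.61 and 11.43 at 72 hr (replicates 1 to 4). The times did not overlap in either culture, and within Mf-A at 72 hr replicates 1 and 3 stood above replicates 2 and 4. The change was 1.70 in dispersed myoblasts (SE 0.15, 3.24-fold, adjusted p = 1.85e-04) and 3.77 in Mf-A (SE 0.37, 13.6-fold, adjusted p = 0.00114). The exact two-sided permutation test gave 0.0286 in each culture, the smallest p that 4 against 4 arrays allow. Itgb4 was 5.49-fold lower in Mf-A than in dispersed myoblasts at 48 hr (log2 difference -2.46, SE 0.30, adjusted p = 1.15e-05). At 72 hr the difference was -0.38 (SE 0.30, adjusted p = 0.322) and the arrays of the cultures overlapped.

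Itga6 makes the laminin receptors of stem and epithelial cells with Itgb1 or Itgb4. Its brighter probe (chr2:71694756-71694815, mm9) read 14.06, 14.32, 14.47 and 14.52 in dispersed myoblasts at 48 hr and 14.01, 14.13, 14.39 and 14.24 at 72 hr. In Mf-A it read 11.52, 11.72, 11.15 and 12.04 at 48 hr and 13.75, 12.81, 13.76 and 12.87 at 72 hr. The times overlapped in dispersed myoblasts (log2 change -0.15, SE 0.12, adjusted p = 0.4) and did not in Mf-A (1.69, SE 0.28, 3.23-fold, adjusted p = 0.00707). The other Itga6 probe (chr2:71690633-71690692, mm9) read 12.53, 12.11, 12.34 and 12.80 in Mf-A at 48 hr and 13.13, 12.91, 13.31 and 12.53 at 72 hr, which overlap. Fitted on its own, that probe changed by 0.53 in Mf-A (adjusted p = 0.0887) and by 0.47 in dispersed myoblasts (adjusted p = 0.00542), and its log2 comparative ratio was -0.06 (adjusted p = 0.871). So the call of Itga6 in Mf-A and in the comparative ratio was made by 1 of its 2 probes, and the choice to look at probes singly was made after seeing the data. Both probes were lower in Mf-A at 48 hr, by -2.73 and -1.02, and at 72 hr, by -0.89 and -0.96 (adjusted p of 0.00615 or lower for each).

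The sequences of these probes are shown since the 2 Itga6 probes read differently. They are assigned to different transcript records, and the cause of their difference was not tested. Bases 16 to 45 of the 60-base probes are given 5′ to 3′, with capitals for a run of the triplet TTG, and for Itgam, the alpha chain of a leukocyte integrin, bases 1 to 30, with capitals for a run of CA.
Itga6, brighter probe: ggaggtcTTGTTGTTGTTGTTGttctgacc
Itga6, other probe: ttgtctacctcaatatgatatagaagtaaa
Itgam, brightest probe: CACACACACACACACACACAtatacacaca
Itgam, probe at 135260275: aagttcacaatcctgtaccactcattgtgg
Itgam, probe at 135212140: tgttaaccagacaggtgccctctaccagtg
The brightest Itgam probe starts with a CA repeat of 20 bases and gave group means of 13.27 to 13.30 in all 4 groups, with no change called. The other Itgam probes, without a repeat, gave group means of 5.50 to 6.90, and of them the 1 at chr7:135260275-135260334 changed by -0.78 in Mf-A (adjusted p = 0.0116). Of all probes, 1.28% hold a CA or TG run of 8 bases or more.

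**Figure D2:**
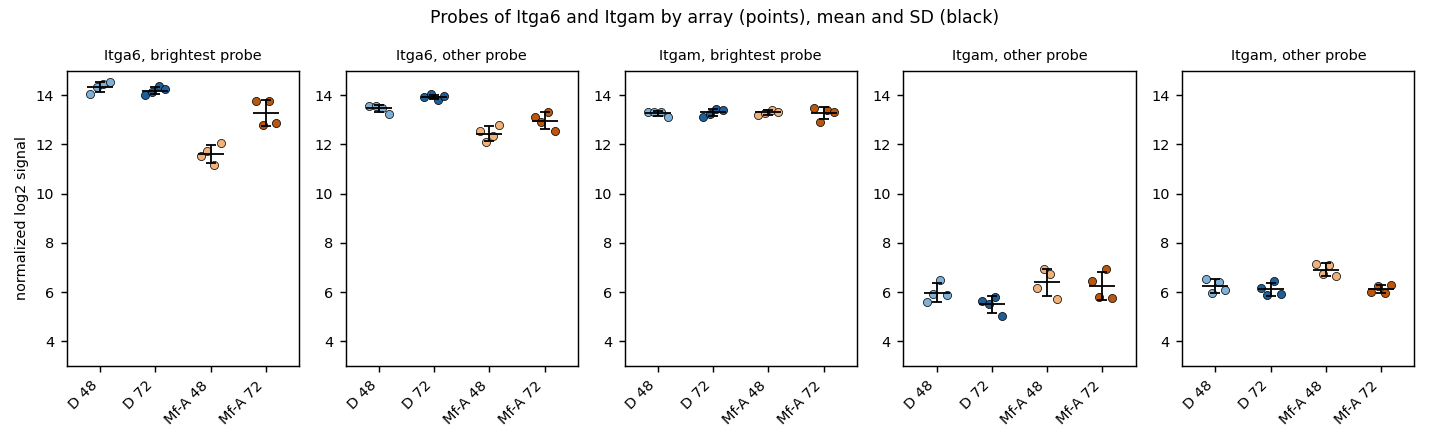
Normalized log2 signal (y axis) of each array for the 2 probes of Itga6 and the 3 of Itgam, in dispersed (D, blue) and myofiber-associated (Mf-A, orange) myoblasts at 48 and 72 hr; points are arrays and black marks the mean and SD of 4. The brighter Itga6 probe separates the Mf-A times and the other does not, and the Itgam probe with the CA repeat stays near 13.3 in all groups while the others lie near 6.

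The remaining laminin-binding chains were not called over time. Itga7 (chr10:128395274-128395333, mm9) read 15.67, 15.54, 15.54 and 15.73 in dispersed myoblasts at 48 hr and 15.24, 15.37, 15.49 and 15.71 at 72 hr. On the Mf-A arrays it read 16.20, 16.01, 16.16 and 15.76 at 48 hr and 15.82, 15.98, 15.91 and 16.09 at 72 hr. The times overlapped in both cultures, with log2 changes of -0.17 (SE 0.10, adjusted p = 0.266) and -0.08 (SE 0.12, adjusted p = 0.639). Between the cultures Itga7 was higher in Mf-A without overlap, by 0.41 at 48 hr (1.33-fold, adjusted p = 0.00549) and 0.50 at 72 hr (1.41-fold, adjusted p = 0.00258). The 48-hr call was lost when any 1 of dispersed 48-hr replicates 1 to 3 or Mf-A 48-hr replicates 7 to 9 was left out. The 72-hr call was lost without dispersed 72-hr replicate 5.

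Itgb1 (chr8:131250081-131255976, mm9), the beta chain that most alpha chains share, read 13.48, 13.42, 13.38 and 13.20 in dispersed myoblasts at 48 hr and 13.52, 13.51, 13.51 and 13.31 at 72 hr. In Mf-A it read 12.79, 12.95, 12.67 and 13.30 at 48 hr and 12.66, 12.54, 12.64 and 12.47 at 72 hr. Neither change over time passed (0.09, SE 0.08, adjusted p = 0.432 and -0.35, SE 0.14, adjusted p = 0.0996). Itga3 (chr11:94906334-94906393, mm9), which binds the laminins of epithelia and vessels with Itgb1, read 10.14, 9.93, 10.07 and 10.13 in dispersed myoblasts at 48 hr and 10.20, 10.37, 10.44 and 10.47 at 72 hr. In Mf-A it read 8.05, 8.72, 7.72 and 7.60 at 48 hr and 8.98, 8.87, 8.93 and 8.83 at 72 hr. The Itga3 times did not overlap in either culture, yet the changes, 0.30 (adjusted p = 0.0206) and 0.88 (adjusted p = 0.0289), missed the threshold. Itga3 was 4.12-fold lower in Mf-A at 48 hr (adjusted p = 4.92e-07) and 2.76-fold lower at 72 hr (adjusted p = 1.61e-05). Of the 5 laminin-binding subunits 1 was called over time in dispersed myoblasts and 2 in Mf-A, with median log2 changes of 0.09 and 0.88.

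**Figure D3:**
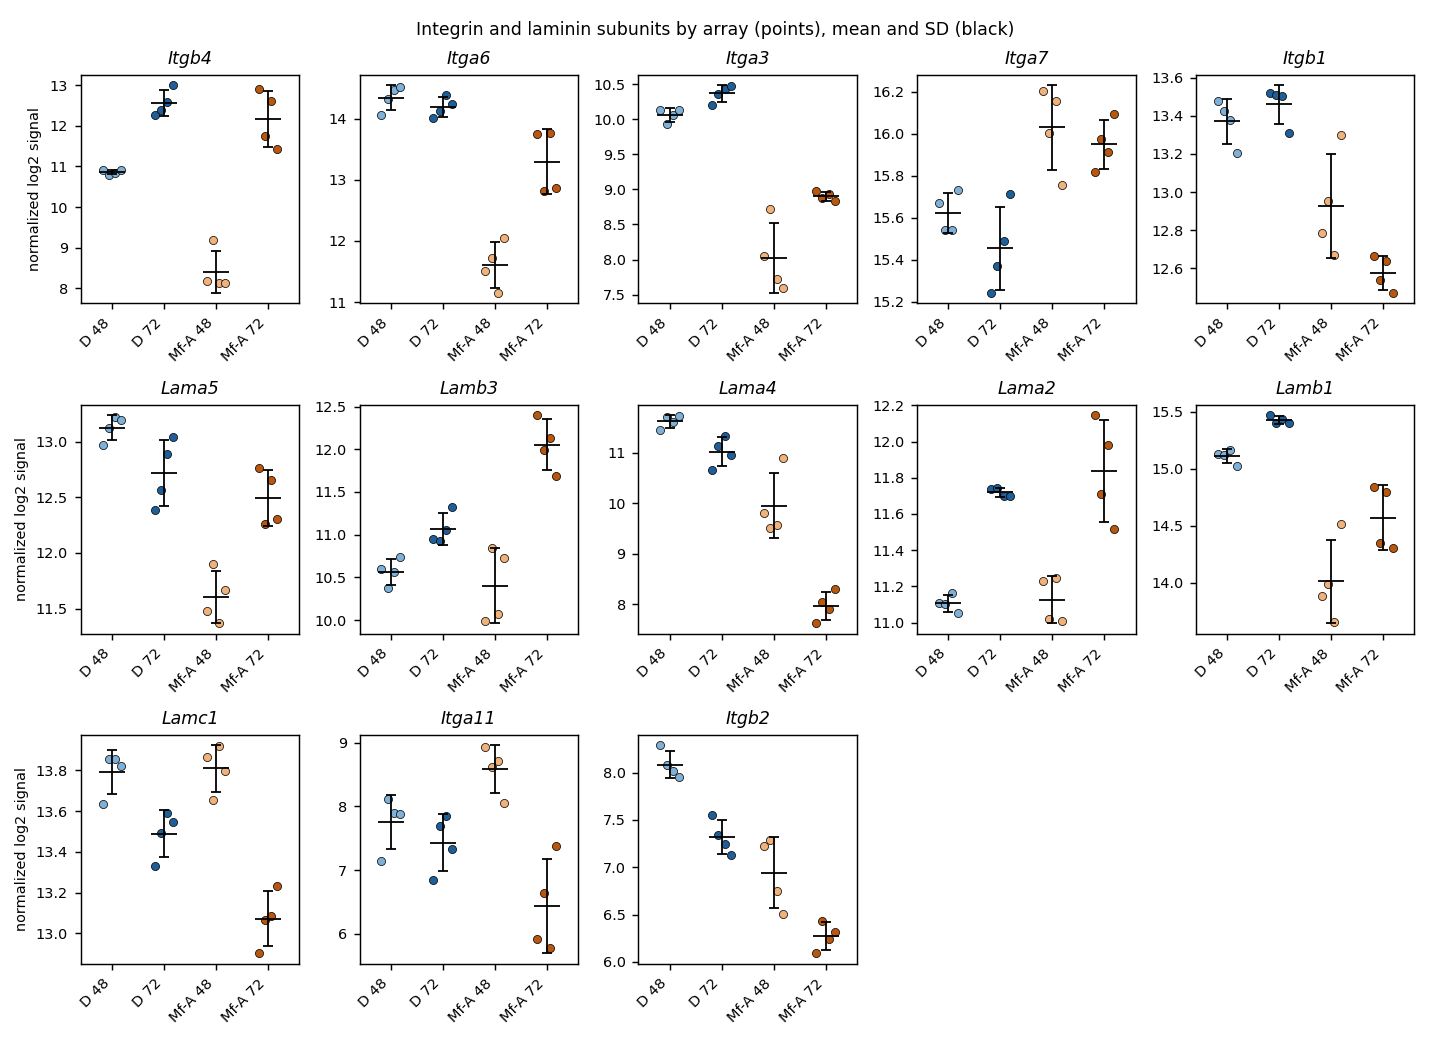
Normalized log2 signal (y axis, each panel on its own scale) of 13 subunits on each array, in dispersed (D, blue) and myofiber-associated (Mf-A, orange) myoblasts at 48 and 72 hr; points are arrays in order of replicate number and black marks the mean and SD of 4. Itgb4 rises in both cultures, Lama2 lies between 11.52 and 12.15 on all 72-hr arrays and at or below 11.25 on all 48-hr arrays, and Lama4 and Itga11 fall in Mf-A.

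Among the chains of the muscle basal lamina laminin, Lama2, whose loss causes a congenital muscular dystrophy, rose in dispersed myoblasts. Lama2 (chr10:26701380-26701439, mm9) read 11.11, 11.10, 11.17 and 11.05 at 48 hr and 11.74, 11.74, 11.70 and 11.70 at 72 hr there, a log2 change of 0.61 (SE 0.04, 1.53-fold, adjusted p = 5.73e-05). In Mf-A it read 11.23, 11.02, 11.25 and 11.01 at 48 hr and 12.15, 11.71, 11.98 and 11.52 at 72 hr, 0.71 higher without overlap (SE 0.15, adjusted p = 0.0155). Its comparative ratio was -0.10 (SE 0.16, adjusted p = 0.674), and a second Lama2 probe changed by 0.57 in dispersed myoblasts (adjusted p = 5.29e-04) and 0.77 in Mf-A (adjusted p = 0.0209).

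Lamb1 (chr12:32014411-32014470, mm9) read 15.13, 15.12, 15.16 and 15.03 in dispersed myoblasts at 48 hr and 15.47, 15.40, 15.44 and 15.40 at 72 hr, a small rise without overlap (0.32, SE 0.04, 1.25-fold, adjusted p = 0.00156). Its Mf-A values were 13.89, 13.99, 13.65 and 14.52 at 48 hr and 14.84, 14.35, 14.80 and 14.31 at 72 hr, and the times overlapped through the pooled 48-hr array (0.56, SE 0.21, adjusted p = 0.0822). Lamc1 (chr1:155066156-155066215, mm9), the gamma chain of most laminins, went the other way. It read 13.86, 13.66, 13.92 and 13.79 in Mf-A at 48 hr and 12.90, 13.07, 13.08 and 13.23 at 72 hr, and fell by 0.74 on the log2 scale (SE 0.10, 1.67-fold, adjusted p = 0.00378). In dispersed myoblasts Lamc1 read 13.63, 13.85, 13.86 and 13.82 at 48 hr and 13.33, 13.49, 13.59 and 13.55 at 72 hr, also without overlap (-0.30, SE 0.07, adjusted p = 0.0203). The 3 chains of this laminin thus did not move together: the median log2 change was 0.32 in dispersed myoblasts, with 2 of 3 called, and 0.56 in Mf-A, with 1 of 3 called.

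The laminin alpha chains of vessels and other basement membranes split in Mf-A. Lama4 (chr10:38825794-38825853, mm9), found mainly around vessels, read 9.80, 9.51, 9.58 and 10.89 at 48 hr and 7.62, 8.04, 7.91 and 8.30 at 72 hr, a fall without overlap in which the pooled array stood highest (log2 change -1.98, SE 0.31, 3.94-fold, adjusted p = 0.00528). In dispersed myoblasts it read 11.45, 11.70, 11.61 and 11.72 at 48 hr and 10.66, 11.13, 11.33 and 10.95 at 72 hr (-0.60, SE 0.14, adjusted p = 0.0152). Endothelial markers were lower at 72 hr in both cultures: 9 of 10 fell in dispersed myoblasts, where their summed signal lay between 122233 and 166021 at 48 hr and between 44668 and 64687 at 72 hr, and 6 of 10 fell in Mf-A, where it was 17949 to 40690 and 11062 to 13550. The pooled Mf-A array had the highest endothelial sum of its group, and fibroblast markers summed to 189165 on it against 79201 to 98898 on the other 3. The part of these cells in the Lama4 values was not tested.

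Lama5 (chr2:179911079-179911138, mm9), the broadest alpha chain of adult basement membranes, read 11.48, 11.90, 11.37 and 11.67 in Mf-A at 48 hr and 12.76, 12.26, 12.65 and 12.31 at 72 hr. That was a rise without overlap (0.89, SE 0.16, 1.85-fold, adjusted p = 0.00928), and it missed the threshold in each fit without 1 array, with adjusted p of 0.0109 to 0.034. In dispersed myoblasts Lama5 read 12.97, 13.12, 13.22 and 13.20 at 48 hr and 12.38, 12.57, 12.89 and 13.04 at 72 hr, which overlap (-0.41, SE 0.14, adjusted p = 0.0694). The difference between the cultures, its comparative ratio, passed in each of the 16 fits without 1 array (adjusted p of 0.00225 to 0.00982). Lamb2, the beta chain of the synaptic basal lamina, and Lamc3 did not pass over time in either culture.

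Of the epithelial laminin chains, Lamb3 (chr1:195170009-195170068, mm9) rose in Mf-A. It read 9.98, 10.84, 10.06 and 10.72 at 48 hr and 12.40, 11.99, 12.13 and 11.68 at 72 hr, without overlap (1.65, SE 0.24, 3.13-fold, adjusted p = 0.00419). In dispersed myoblasts it read 10.59, 10.37, 10.56 and 10.73 at 48 hr and 10.95, 10.93, 11.05 and 11.33 at 72 hr, also without overlap (0.50, SE 0.11, adjusted p = 0.0116). Lama3, the alpha chain with which Lamb3 is secreted, had a log2 change of -0.06 in Mf-A (SE 0.12, adjusted p = 0.723). Of the epithelial markers, Epcam was above background on no array of any group and Cdh1 on none at 72 hr, while Krt5, Krt8, Krt14 and Krt18 were above background on all 16 arrays.

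The upstream sequences of the 2 laminin genes that rose in Mf-A are given from RefSeq (GRCm38.p6) as 250 bases 5′ to 3′ up to the gene start, with capitals for the E-box CAGCTG, a sequence that myogenic factors bind.
Lama5, chr2:180225860-180226109, minus strand: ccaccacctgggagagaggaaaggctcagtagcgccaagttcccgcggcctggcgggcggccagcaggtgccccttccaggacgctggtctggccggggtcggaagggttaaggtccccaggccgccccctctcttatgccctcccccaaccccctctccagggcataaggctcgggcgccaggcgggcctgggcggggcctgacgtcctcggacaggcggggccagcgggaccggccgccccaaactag
Lamb3, chr1:193301744-193301993, plus strand: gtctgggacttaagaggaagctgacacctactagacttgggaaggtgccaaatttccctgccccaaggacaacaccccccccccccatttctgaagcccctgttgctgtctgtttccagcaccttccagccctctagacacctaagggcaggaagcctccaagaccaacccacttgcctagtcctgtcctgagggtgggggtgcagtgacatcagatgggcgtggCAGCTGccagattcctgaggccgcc
The letters were searched for on both strands, as was TGANTCA, and the motifs do not overlap. CAGCTG was in 13% of 32851 windows of this length and in 6 of 26 windows of the integrin and laminin genes, among them the Lamb3 window shown (1 match) and not that of Lama5. The table holds 2 windows for Lamb3, and the other one, at chr1:193301993-193302242, has no match. TGANTCA was in 6.75% of all windows and in 1 of the 26. A match describes the letters only. Itgb4 and Itga6 are not in the table of upstream sequences.

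Of the 4 collagen-binding alpha chains, 1 was called over time. Itga11 (chr9:62631667-62631726, mm9), a receptor for fibrillar collagen mostly made by fibroblasts, read 8.93, 8.62, 8.72 and 8.05 in Mf-A at 48 hr and 5.92, 6.64, 5.78 and 7.38 at 72 hr. The fall did not overlap (-2.15, SE 0.36, 4.44-fold, adjusted p = 0.00691), and replicate 4 stood highest at 72 hr. In dispersed myoblasts Itga11 read 7.15, 8.12, 7.89 and 7.89 at 48 hr and 6.84, 7.69, 7.84 and 7.33 at 72 hr, which overlap (-0.33, SE 0.27, adjusted p = 0.408). In Mf-A 3 of 7 tested fibroblast markers fell as well (Dpt, Lum and Col1a1). In dispersed myoblasts none of the 7 passed, with log2 changes of -2.08 for Dpt (adjusted p = 0.0115) and -0.87 for Lum (adjusted p = 0.0387). On the Mf-A arrays the fibroblast sum was highest on 48-hr replicate 10 (189165) and 72-hr replicate 3 (66376). Each of these arrays had the lowest Itga11 of its time. The adult fiber sum was also lower at 72 hr in Mf-A, and at each time Itga11 ranked the arrays as that sum did. The part of fibroblasts or of fiber RNA in the Itga11 values was not tested. Itga1 and Itga2 had log2 changes of -1.19 (adjusted p = 0.0171) and -2.11 (adjusted p = 0.0285) in Mf-A and did not pass. The other Itga1 probe changed by 0.001 in Mf-A (adjusted p = 0.998) and by -1.27 in dispersed myoblasts (adjusted p = 0.00309), where the brighter one changed by -1.05 (adjusted p = 0.0125).

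The 8 tested subunits that bind fibronectin and other RGD ligands gave no call over time in either culture, with median log2 changes of 0.18 and -0.71. Fitted on its own, however, the other Itgb3 probe changed by -1.43 in Mf-A (adjusted p = 0.00743), where the brighter one changed by -1.10. With the mean of all probes Itgb3 was called in Mf-A. Their largest changes in Mf-A were -1.62 for Itgb6 (SE 0.56, adjusted p = 0.066), 1.35 for Itga8 (SE 0.28, adjusted p = 0.0151) and -1.15 for Itgb5 (SE 0.37, adjusted p = 0.0576). Of the 4 tested leukocyte subunits only Itgb2 was called. Itgb2 (chr10:77027978-77028037, mm9) read 8.29, 8.08, 8.01 and 7.95 in dispersed myoblasts at 48 hr and 7.55, 7.34, 7.24 and 7.13 at 72 hr, a fall without overlap (-0.77, SE 0.11, 1.70-fold, adjusted p = 0.00151). The Mf-A arrays read 7.23, 7.29, 6.75 and 6.51 at 48 hr and 6.09, 6.44, 6.24 and 6.32 at 72 hr, also without overlap (-0.67, SE 0.19, adjusted p = 0.0363). Leukocyte markers summed to between 10024 and 12158 on the dispersed 48-hr arrays and between 6198 and 8365 at 72 hr, and 3 of 8 tested fell there (Tyrobp, Cd68 and Fcer1g). On the Mf-A arrays their sum lay between 12316 and 19977 at 48 hr and between 7410 and 11445 at 72 hr, with 0 of 8 called. Between the cultures, though, 1 was called higher and 4 lower in Mf-A at 48 hr, and 2 higher and 4 lower at 72 hr. These shares, 62.5% and 75%, stand beside 51.6% and 31.3% of all genes. The part of leukocytes in the Itgb2 values was not tested.

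On the Mf-A 72-hr arrays several subunits split the replicates the way the fiber signal did. The adult fiber markers summed to 1967920, 1546060, 1875290 and 1297270 at 48 hr (replicates 7 to 10) and to 440305, 975932, 352868 and 1234910 at 72 hr (replicates 1 to 4). At 72 hr replicates 1 and 3, with the least fiber signal, had the highest Itgb4, Itga6, Lama5, Lamb3 and Lama2. The same replicates had the lowest Itga11, Itgb5 and Itgb6. Itgb6, the epithelial partner of Itgav, read 13.29, 12.71, 13.00 and 11.82 at 48 hr and 10.11, 11.86, 10.10 and 12.25 at 72 hr, and 72-hr replicates 2 and 4 lay above 48-hr replicate 10. The part of fiber RNA in these changes was not tested. In dispersed myoblasts, Itgb4 and Lama2 also rose, with a fiber sum between 82303 and 106288 at 48 hr and between 82510 and 101540 at 72 hr. That sum hides falls of single fiber markers: 5 of the 10 were called lower there and 0 higher, with a median log2 change of -1.53. Eno3, with group means of 16.12 and 16.33, was not among those that fell.

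**Figure D4:**
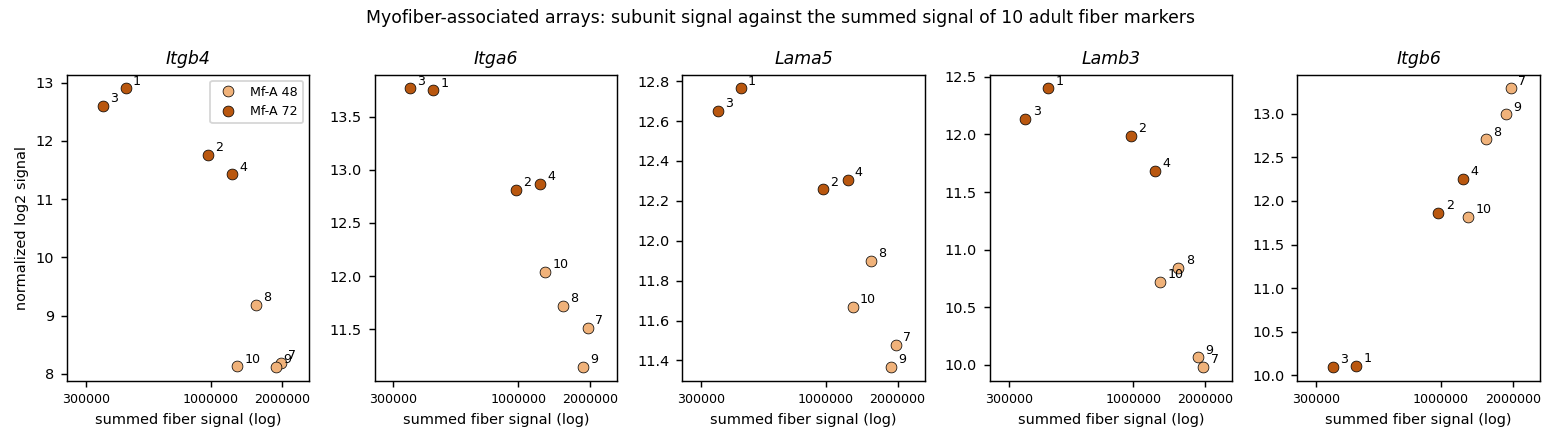
Normalized log2 signal (y axis) of 5 subunits on the 8 myofiber-associated arrays against the summed normalized signal of 10 adult fiber markers on the same array (x axis, log scale), at 48 hr (light) and 72 hr (dark); numbers are replicates. At 72 hr replicates 1 and 3 lie at 440305 and 352868 and hold the highest Itgb4, Itga6, Lama5 and Lamb3 and the lowest Itgb6 of the group.

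Between the cultures most called subunits were lower in Mf-A. At 48 hr 18 of 31 passed, 4 higher and 14 lower in Mf-A, against 51.6% of all genes, 19.1% higher and 32.5% lower. At 72 hr again 18 passed, 3 higher and 15 lower, against 31.3% of all genes, 12.9% higher and 18.4% lower. The median log2 difference, Mf-A minus dispersed, was -0.58 and -0.43 over the subunits at 48 and 72 hr, and -0.12 and -0.02 over all genes. At both times 14 subunits were called, and slide and culture cannot be told apart in any of them. By family, 14 of 21 integrin and 4 of 10 laminin subunits were called at 48 hr, and 13 and 5 at 72 hr.

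Itgb6 was highest above dispersed myoblasts: 33.4-fold higher in Mf-A at 48 hr (log2 difference 5.06, SE 0.44, adjusted p = 5.32e-07) and 7.55-fold at 72 hr (2.92, SE 0.44, adjusted p = 1.18e-04), with a second probe at 4.90 and 2.78. Of 4 tested epithelial markers 3 were also higher in Mf-A at both times, and their list summed to between 8789 and 18637 in Mf-A and between 2188 and 2846 in dispersed myoblasts at 48 hr. At 72 hr the sums were 4864 to 14576 and 1367 to 2329. Of 10 adult fiber markers 10 were higher in Mf-A at 48 hr and 9 at 72 hr. The shares called were 75% of the epithelial list at both times and 100% and 90% of the fiber list. Of all genes 51.6% and 31.3% were called. At each time Itgb6 ranked the Mf-A arrays as the adult fiber sum did, and at 72 hr also as the epithelial sum did. The part of epithelial cells or of fiber RNA in the Itgb6 values was not tested. Among the other subunits Itga7 was higher at both times, Lamb3 at 72 hr (0.99, SE 0.19), and Itgal at 48 hr by 0.54, with the arrays overlapping. On the other side were the collagen receptor chain Itga1, with differences of -2.89 and -3.02 at 48 and 72 hr, and Lama4 (-1.67 and -3.05). The other Itga1 probe, fitted on its own, differed by -1.43 at 48 hr (adjusted p = 9.30e-04) and by -0.16 at 72 hr (adjusted p = 0.696), so the 72-hr call of Itga1 was made by 1 of its 2 probes. Itga2, another collagen receptor chain, differed by -3.58 at 72 hr (SE 0.46, adjusted p = 3.06e-05), and by -1.37 at 48 hr (adjusted p = 0.0184), where the pooled array read 8.15 and the other 3 read 5.79 to 6.17. The fibronectin and vitronectin receptor chains Itga5, Itgav and Itgb3 were lower at both times, with differences of -0.58, -0.88 and -0.77 at 48 hr and -1.47, -1.40 and -1.75 at 72 hr. At 48 hr the call was lost on another probe for Itgb3 (-0.24, adjusted p = 0.442), Itgb1 (-0.22, adjusted p = 0.115) and Itgal (0.19, adjusted p = 0.149). Among the chains of the muscle basal lamina laminin, Lama2 differed by 0.02 and 0.12 (SE 0.11 each, adjusted p of 0.891 and 0.4). Lamb1 was lower in Mf-A at both times (-1.10 and -0.86). Lamc1 differed by 0.02 at 48 hr and was lower in Mf-A at 72 hr (-0.42). Lama5 was lower in Mf-A at 48 hr (-1.52) and differed by -0.22 at 72 hr.

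**Figure D5:**
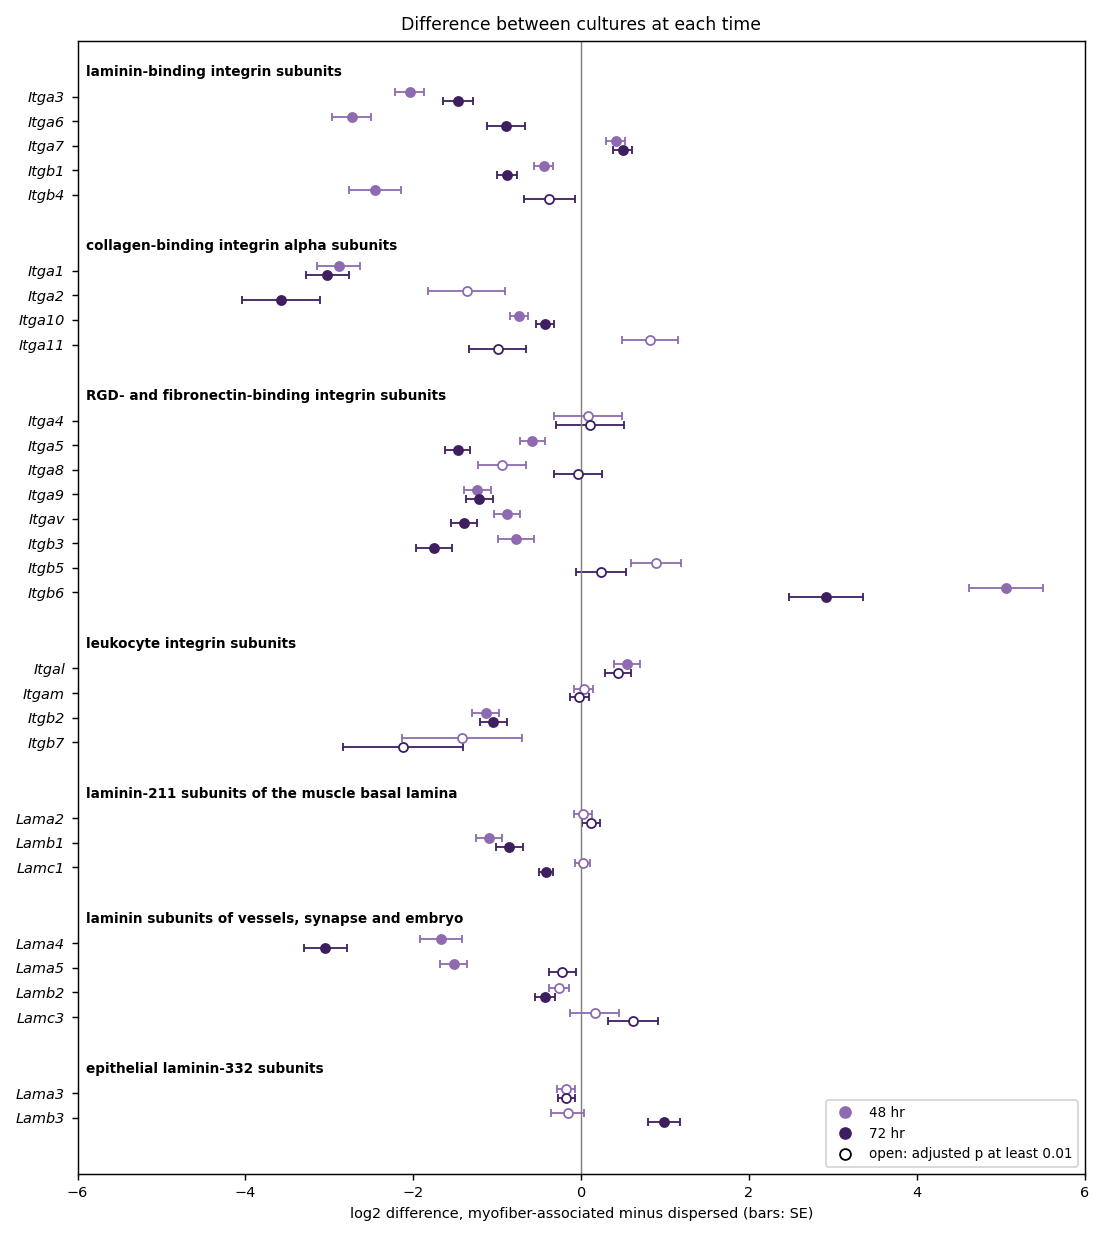
Log2 difference between the cultures (x axis, myofiber-associated minus dispersed) of 30 of the 31 tested subunits at 48 hr (light) and 72 hr (dark), grouped as in the plot of changes over time; bars are the SE and filled points passed an adjusted p of 0.01 in limma. Itgb6 lies farthest to the right at both times (5.06 and 2.92), and Itga2 at 72 hr farthest to the left (-3.58).

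The genes that integrins and laminins work with were counted in 3 lists. Of 25 tested integrin adapters and adhesion kinases, 5 rose and none fell in dispersed myoblasts (Tln2, Zyx and Vcl by 0.56, 0.56 and 0.41), and in Mf-A 2 rose (Zyx by 1.14, Cd81 by 0.64) and 1 fell. These shares, 20% and 12%, stand beside 13.7% and 5.48% of all genes. The 1 was Itgb1bp2, a muscle protein that binds the tail of Itgb1, which fell by 2.48 in Mf-A (SE 0.44, adjusted p = 0.00882) and changed by -0.05 in dispersed myoblasts (adjusted p = 0.914). It ranged from 9.13 to 10.29 in Mf-A at 48 hr, from 6.35 to 8.19 at 72 hr, and from 4.53 to 5.69 in dispersed myoblasts over both times. In Mf-A 10 of 10 adult fiber markers had a log2 change below 0, with a median of -2.01. Their median in dispersed myoblasts was -1.53. The part of fiber RNA in the Itgb1bp2 values was not tested. The median log2 change of this list was 0.04 in dispersed myoblasts and 0.13 in Mf-A.

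Of 13 tested genes of the dystroglycan complex and other laminin receptors, 3 rose (Sgca by 1.09, Sspn by 0.80 and Large by 0.24) and 1 fell in dispersed myoblasts, and none was called in Mf-A. These shares, 30.8% and 0%, stand beside 13.7% and 5.48% of all genes. The 1 that fell was Dag1, which encodes dystroglycan, by 0.41 on the log2 scale (SE 0.07, adjusted p = 0.0055), and its change in Mf-A was -0.61 (SE 0.23, adjusted p = 0.087). The comparative ratio passed for Utrn (-1.94, SE 0.31, adjusted p = 0.00251), a relative of dystrophin, and for Sgca (1.15, SE 0.24, adjusted p = 0.00824). That is 15.4% of the list, against 3.45% of all genes. Between the cultures 11 of 13 were called at 48 hr, 7 of them higher in Mf-A, among them Sgcd (3.34) and Sgca (2.74), and 7 at 72 hr. Those are 84.6% and 53.8% of the list, against 51.6% and 31.3% of all genes.

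Of 18 other niche ligands and basement membrane partners, 4 rose and 4 fell in dispersed myoblasts, where the largest changes were those of Vtn (-2.58), Col6a2 (-1.71) and Col6a1 (-1.40). In Mf-A 3 rose, led by Npnt (1.65), a ligand of the Itga8 integrin, and Fbln1 (1.20), and 2 fell, led by Col6a3 (-1.65). The shares called over time were 44.4% in dispersed myoblasts and 27.8% in Mf-A, against 13.7% and 5.48% of all genes. The comparative ratio passed for Tnc (1.46, SE 0.25, adjusted p = 0.00335), an adhesion-modulating glycoprotein, which is 5.56% of the list against 3.45% of all genes. At 48 hr 12 of 18 were lower in Mf-A and none higher, against 32.5% and 19.1% of all genes, led by the collagen IV chains Col4a2 (-2.12) and Col4a1 (-2.10). At 72 hr 8 were lower and 2 higher, against 18.4% and 12.9%. Endothelial cells also make collagen IV, and 9 of 10 endothelial markers were lower in Mf-A at 48 hr, with a median difference of -2.71. Their part in these values was not tested. The median difference over this list was -0.84 at 48 hr and -0.55 at 72 hr, against -0.77 and -0.89 over the tested integrin subunits and -0.17 and -0.20 over the laminin subunits.

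The 6 subunits below the filter were Itga2b, Itgad, Itgae, Itgax, Itgb8 and Lama1. Itgad and Itgae were well above background on 1 of the 16 arrays each, both at Mf-A 72 hr. Itgb8 lay between 4.97 and 5.38 in dispersed myoblasts at 48 hr and between 4.42 and 4.89 at 72 hr, above background on all 8 arrays, and was above background on none of the 8 Mf-A arrays. Lama1, an alpha chain of embryonic basement membranes, was above background on 7 of 8 dispersed and 4 of 8 Mf-A arrays. Itgax, a marker of dendritic cells, was above background on 7 of 8 dispersed arrays, on 2 of 4 Mf-A arrays at 48 hr and on none at 72 hr, and Itga2b, the platelet integrin chain, on 5 of 8 dispersed arrays, 4 Mf-A arrays at 48 hr and none at 72 hr.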

How the data were processed

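RNA from 2 cultures of myoblasts at 48 and 72 hr, 4 arrays each, was measured on single-color arrays. The authors deposited spot signals as fluorescence intensity, already background-corrected by the scanner software, and, in a second file, log2 ratios in which 72-hr arrays are set against their 48-hr mean, used as an alternative. Following the study's methods, log2 signals were loess-normalized to the mean of the culture's 48-hr arrays (span 0.3, 4 iterations) and the 16 arrays were quantile-normalized, with outlier spots left out (none belonged to a subunit). Identical probes were averaged, and the brightest of the probes of a gene stood for it (12 of the 37 genes have more than 1, and 51 probes read them). Genes with a median log2 signal of at least 5 were tested two-sided in limma, adjusting p-values by Benjamini-Hochberg across 20317 genes, at a threshold of 0.01: times within a culture on 8 arrays, the comparative ratio and the culture differences on 16. The samr package of the methods was not used. Levels of different genes were not compared, since probes differ in brightness. The number of arrays limits the precision.

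The subunits, lists, tests and alternatives were chosen with earlier results of these data known. Subunits called over time, and Itga3, Itga6, Itga7, Itgb1, Itgb4, Lama2, Lamb1 and Lamc1 whether called or not, are described array by array, and of each partner list up to 3 called genes with the largest changes plus Itgb1bp2 and Dag1. Alternatives were normexp background correction (offset 50), 75th-percentile scaling, quantile normalization without loess, omission of the filter, a filter on signal above background, the mean of all probes, the deposited ratios, the slide row as a block, a joint fit of 16 arrays, and each array left out with its normalization kept. The fits were tested on simulated data. The fits ran in limma 3.58.1 under R 4.3.3, and figures were drawn with matplotlib 3.10.9. Positions are the files' mm9 coordinates, whose exon annotation was not used here. Upstream sequences are from RefSeq (GRCm38.p6), and proteins were not used here. Some genes are counted above but not reported here by name.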

Additional observations from a re-analysis of the deposited data

Results flagged for a closer look

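The comparative ratio passed the threshold for Itgb4 (-2.07), Itga6 (-1.84) and Lama5 (-1.30), and among partner genes for Utrn (-1.94), Sgca (1.15) and Tnc (1.46), which tests whether the change over time differed between the cultures. For Itga6 the call was made by 1 of its 2 probes, and for Itgb4 it was lost without 11 of the 16 arrays and under 4 of 8 alternatives.

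In 15 of 148 sets of 4 arrays (37 subunits in 4 groups) the highest or lowest array lay far from the other 3, where chance alone gives about 1 in 20. The pooled Mf-A 48-hr array (replicate 10) accounts for 4 of them: Itgb7 at a log2 signal of 10.29 (the others at 6.10 to 6.79), Itga2 at 8.15 (5.79 to 6.17), Itgav at 10.35 (9.67 to 9.73) and Itgal at 6.71 (7.38 to 7.43). In the same group replicate 8 had Itgb4 at 9.18 (8.12 to 8.18), and replicate 9 had Itgae at 3.36 (2.10 to 2.19), not above background. Replicate 3 of Mf-A at 72 hr had Itgb8 at 2.55 (1.77 to 1.84), not above background.

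Among the dispersed 48-hr arrays replicate 1 had Itga9 at 8.38 (8.91 to 8.95), Lamc1 at 13.63 (13.82 to 13.86), Lama3 at 7.45 (7.52 to 7.53) and Itgad at 2.82 (2.13 to 2.23, not above background), and replicate 4 had Itgb3 at 13.17 (13.63 to 13.66) and Itgam at 13.11 (13.30 to 13.33). At 72 hr replicate 8 had Itgb1 at 13.31 (13.51 to 13.52) and replicate 6 had Itgb8 at 4.89 (4.42 to 4.49).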

How the results depend on the processing

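No paired analysis was possible because the groups compared share fewer than 2 replicate numbers. In dispersed myoblasts 9 subunits were called with the deposited table, against 4. In Mf-A 4 were called with normexp (whose offset lifts all 34836 genes over the filter, so that both choices change), 2 without the filter on low signal, 20 in 1 fit of 16 arrays and 17 with the deposited table, against 7, and with the comparative ratio 14 were called with the deposited table, against 3. The share of all genes called moved as well. In dispersed myoblasts it was 18.4% with the deposited table, against 13.7%. In Mf-A it was 2.43% with normexp and 1.34% without the filter, against 5.48%. It was 28.4% there in 1 fit of 16 arrays and 18.6% with the deposited table. For the comparative ratio it was 18.8% with the deposited table, against 3.45%. The deposited table holds ratios to a 48-hr mean, so it leaves out the spread of the 48-hr arrays. The cause of the other shifts was not tested. Without 1 array the counts were 4 to 7 in dispersed myoblasts, 1 to 9 in Mf-A and 1 to 8 for the comparative ratio, and between cultures 13 to 20 at 48 hr and 15 to 20 at 72 hr. Itgb4 passed in both cultures under every alternative, with log2 changes of 1.69 to 1.74 and 3.55 to 3.78, and the comparative ratio of Lama5 did too. That of Itgb4 missed the threshold with normexp, without the filter, with the filter on background and with the row block (adjusted p up to 0.0181), and without 11 of the 16 arrays. That of Itga6 missed it with the mean of all probes (-0.95). In dispersed myoblasts Lamb1 missed it in 1 fit of 16 arrays (adjusted p = 0.252). Among the genes described array by array, uncalled values changed sign for Itga6 in dispersed myoblasts with the mean of all probes (0.16), the comparative ratio without 1 array for Itga7 (-0.173 to 0.00475) and Itgb2 (-0.210 to 0.0508), both positive without the pooled Mf-A array, and for Lama2 (-0.207 to 0.00322), positive without Mf-A 72-hr replicate 1, and Itgb1 in dispersed myoblasts on its other probe (-0.0839). The other Itga6 probe in dispersed myoblasts turned the sign and was called (0.47, adjusted p = 0.00542). Other probes of Itga1, Itga10, Itgal, Itgam and Itgb3 also gave changes over time of the opposite sign in at least 1 comparison. The median difference of all genes between cultures at 48 hr was -0.12, -0.02 with normexp and -0.05 without the filter alone, and the subunits were then called 4 higher and 16 lower, and 3 higher and 15 lower. Of all genes 31.8% and 32.1% were then called, against 51.6%.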
